A study of Mus musculus with 2 samples.

Results

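Cytosolic ribosomal proteins were compared between splenic CD4+ T cells of DBA/1 mice and of C57BL/6 mice on day 7 after immunisation with GPI (glucose-6-phosphate isomerase). DBA/1 mice are the arthritis-susceptible strain of the series and C57BL/6 mice the resistant one, and both groups were immunised. The cells were isolated by magnetic sorting, and 1 oligonucleotide array was hybridised per strain, so there are no replicates, no error over mice and no test for any value below. The labels do not state how many animals gave each RNA sample, their age or their sex. Probe sets with exactly 1 gene symbol of the form Rpl or Rps followed by a digit, or Rplp0, Rplp1, Rplp2 or Rpsa, were taken, without the Rps6k kinases and without pseudogene symbols. This gave 48 genes of 12393 with a probe set of their own, measured by 100 of 22626 probe sets other than controls, with 26 large subunit symbols and 22 small subunit symbols. A further 95 probe sets name 1 ribosomal protein gene beside pseudogene, predicted or retro-copy symbols. They lie outside the rule, are called shared probe sets here and are used only as a second reading of the same genes.

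The cytosolic ribosome consists of a large and a small subunit, each built from ribosomal RNA and many small proteins, most of them present in 1 copy each. Their mRNAs are among the most abundant of a lymphocyte, and most begin with a run of pyrimidines at the cap, the terminal oligopyrimidine (TOP) tract, through which mTORC1 and the cap-binding protein Larp1 control their translation. Activated T cells enlarge and make more ribosomes before they divide. Ribosomal protein genes have very many processed pseudogenes, and an array probe set can pair with more than 1 copy.

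Start regions are shown for 7 member genes that have a pyrimidine run at or near the annotated start, as examples of the TOP tract, a feature that the choice of members did not use. They were picked for having it, and most member windows counted below do not. Each line gives 50 bases, 35 before the annotated transcription start and 15 from it on, from RefSeq on GRCm38.p6, with the longest pyrimidine run that touches the 5 bases on either side of the start in capitals. The stretches lie at chr2:39005117-39005166 on the minus strand for Rpl35, chr11:114668545-114668594 on the plus strand for Rpl38, chr7:141447616-141447665 on the plus strand for Rplp2, chr17:27635230-27635279 on the minus strand for Rps10, chr17:33955651-33955700 on the minus strand for Rps18, chr3:90213634-90213683 on the minus strand for Rps27 and chr9:66946051-66946100 on the plus strand for Rps27l.
Rpl35: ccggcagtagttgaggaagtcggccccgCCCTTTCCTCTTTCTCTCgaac
Rpl38: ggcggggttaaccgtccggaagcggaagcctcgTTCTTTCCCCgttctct
Rplp2: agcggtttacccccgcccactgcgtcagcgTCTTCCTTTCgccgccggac
Rps10: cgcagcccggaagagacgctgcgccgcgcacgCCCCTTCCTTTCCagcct
Rps18: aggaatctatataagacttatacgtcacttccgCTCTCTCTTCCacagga
Rps27: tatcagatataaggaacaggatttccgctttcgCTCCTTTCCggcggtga
Rps27l: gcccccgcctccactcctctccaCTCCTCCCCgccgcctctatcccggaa
Among these 7 the run is longest in Rpl35, at 18 bases, and it measures 9 bases in Rps27 and in its paralogue Rps27l. In Rps27l it ends before the annotated start, and at a second listed start of that gene the longest run has 4 bases. RefSeq start windows were at hand for 42 of the 48 genes, with 50 windows of 300 bases in all, since some genes have more than 1 annotated start. A pyrimidine run of at least 8 bases touched the start in 18 of these 50 windows (36%), against 9.38% of all 32851 windows. The letters CCGGAA, the core of the sites of ETS factors such as GABPA, stood on either strand in 28 of 50 (56%), against 14.9% of all windows. TATAAA, searched on the strand of the gene in the 50 bases before the start, stood in 1 of the 50 windows (2%), against 2.63% of all. A match is a description of the letters, and the annotated start may lie some bases from the one used in these cells.

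Most ribosomal protein probe sets were very bright on both arrays. A probe set was called bright when its signal reached the array's 75th percentile on both arrays (171 for DBA/1 and 162 for C57BL/6), middle when both signals reached the array's median (37.6 for DBA/1 and 38.0 for C57BL/6) without being bright, and dim otherwise. Of the 100 members 76 were bright, from 40 genes, 8 were middle and 16 were dim. The bright members had a median signal of 6180 in DBA/1 and 5696 in C57BL/6, and the brightest reached 9061 in DBA/1 and 8579 in C57BL/6. The members are 0.442% of the probe sets and held 7.98% of the summed signal in DBA/1 and 8.16% in C57BL/6. With the shared probe sets these shares were 16.9% in DBA/1 and 17.1% in C57BL/6. Of the 203 probe sets at or over percentile 99 on both arrays, 58 were members and 65 were shared ribosomal protein probe sets, together 60.6%. Probe sets differ in affinity, so their signals place them on an array but do not rank the genes by mRNA amount, and signals near the top of an array can be compressed.

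**Figure D1:**
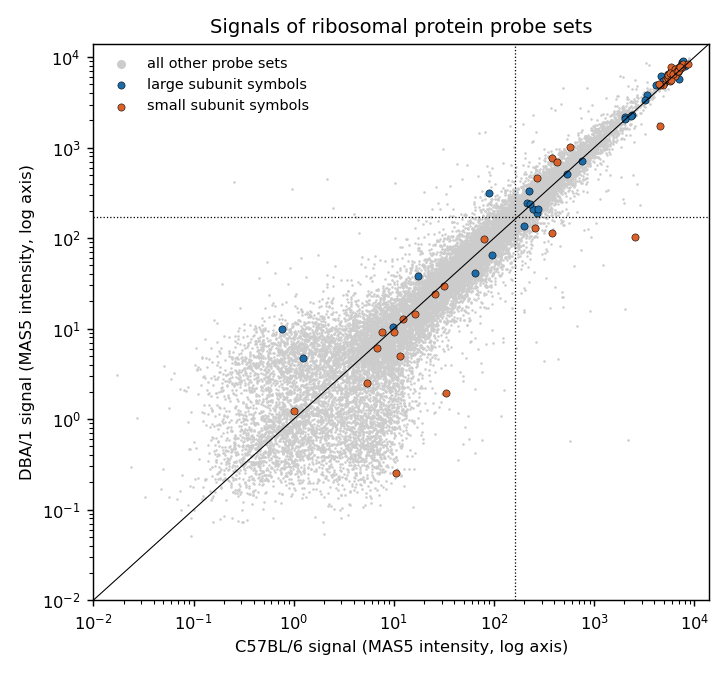
Signals of all probe sets other than controls, DBA/1 on the vertical and C57BL/6 on the horizontal log axis, in MAS5 intensity units, with the 100 ribosomal protein probe sets coloured by subunit, the line of equal signal and dotted lines at the 75th percentiles (171 for DBA/1 and 162 for C57BL/6). The 76 bright members lie mostly in a tight group between 4000 and 9061 along the line. From Rps9, 1 point of the middle class lies far below the line at 102 in DBA/1 and 2573 in C57BL/6. Of the 16 dim members 9 (56.25%) have a log2 ratio within 0.3 of 0, where 20.3% of all dim probe sets do. The other dim members scatter more widely.

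The median of the family lay at the offset that all bright probe sets carry. The 76 bright members had a median log2 ratio of DBA/1 over C57BL/6 of 0.11, a factor of 1.08, and all 5126 bright probe sets had 0.12. The deposited arrays differ by such an offset, so the sign of the family's median is not settled: it was 0.028 after median centring, -0.023 after quantile normalization and -0.025 after lowess. The members' median minus that of all bright probe sets was -0.0020 as deposited and -0.024 after lowess. As deposited 61 of the 76 members lay above 0 and 15 below, where 65.2% of all bright probe sets lay above 0 and 34.8% below, whereas after lowess 28 lay above 0 and 48 below.

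The ratios of the members were close to each other. The middle 50% of the bright members lay between 0.027 and 0.19 on the log2 scale, against -0.085 to 0.32 for all bright probe sets. Of the 76 members, 64 (84.2%) lay within 0.3 of 0, where 63% of all bright probe sets did. Brighter probe sets vary less in general: of the probe sets at or over percentile 95 on both arrays, 59 of 64 members (92.2%) lay within 0.3 of 0, and 68.5% of all 980 did. At or over percentile 99 the SD over probe sets was 0.12 for 58 members and 0.20 for 77 probe sets that name no ribosomal protein, with medians of 0.12 for both. The middle 50% was nearly the same, from 0.057 to 0.19 for the members and from 0.050 to 0.19 for the others, so the larger SD of the others came from their extremes, which reached 1.24. The 79 bright shared probe sets gave a median of 0.11. At least 1.5-fold higher in DBA/1 were 4 of 76 members, where 8.23% of all bright probe sets were, and at least 1.5-fold lower was 1, where 2.93% were. At 2-fold there was 1 member in each direction, against 1.72% of all bright probe sets higher and 0.819% lower.

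**Figure D2:**
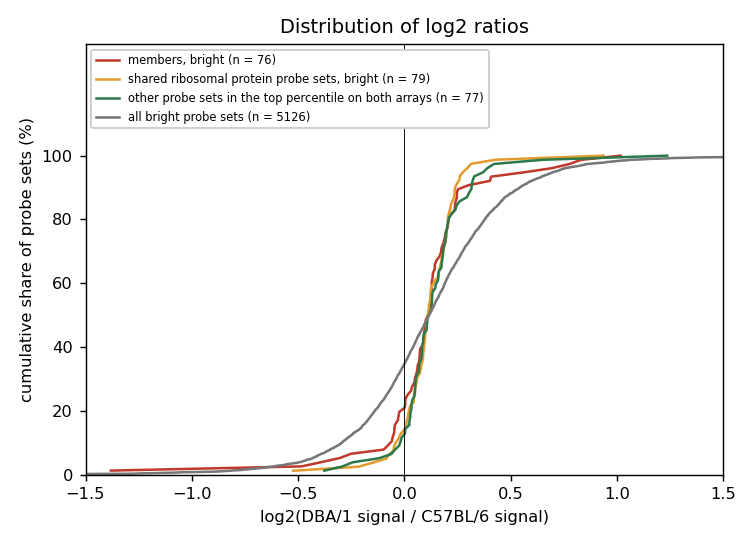
Cumulative share of probe sets in percent (vertical) by log2 ratio of DBA/1 over C57BL/6 (horizontal, values as deposited) for 76 bright members, 79 bright shared ribosomal protein probe sets, 77 other probe sets at or over percentile 99 on both arrays and all 5126 bright probe sets. The 4 curves cross 50% between 0.11 and 0.12, and under lowess that point becomes -0.025 for the members and -0.00053 for all bright probe sets. The curve of all bright probe sets is the flattest.

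With 1 probe set per gene, the one with the highest mean log2 signal, 40 genes were bright, and 34 of them had a log2 ratio within 0.3 of 0. The signals of these 40 genes followed each other across genes (Pearson r = 0.988 of log2 signals, Spearman rho = 0.925), as a description of 2 arrays that share their probes. The sign of the ratio changed under at least 1 scaling for 19 of the 40 genes. Probe sets that target 1 gene repeatedly give the one check on a value. In the 18 genes that had at least 2 bright ones, 54 in all, the pooled SD within a gene was 0.26 on the log2 scale, and 0.15 without 1 probe set of Rps24, against an SD of 0.22 between the 40 genes. All bright probe sets lay within 0.3 of each other in 13 of the 18 genes. The SD within a gene uses all its bright probe sets, whereas the SD between genes uses only the brightest of each. The spread within a gene covers differences between probe sets on the same arrays and no spread over mice.

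The 21 large subunit genes had a median log2 ratio of 0.13 as deposited, with a middle 50% from 0.036 to 0.18, and -0.015 after lowess. Among the proteins of the stalk, which recruits and activates elongation factors, Rplp0, the stalk's anchor, read 5723 in DBA/1 and 7064 in C57BL/6, a log2 ratio of -0.30. It kept a negative ratio under every scaling tried, from -0.30 to -0.45, and 285 of 3272 bright genes had a lower one. Rplp2, which sits on Rplp0 in pairs with Rplp1, read 8102 in DBA/1 and 7697 in C57BL/6. Rpl12, at the base of the stalk, read 191 in DBA/1 and 267 in C57BL/6, a log2 ratio of -0.48 close to the edge of the bright class. Its 2 shared probe sets lay at the top of the arrays, at 6475 and 8575 in DBA/1 and 5620 and 8422 in C57BL/6, with log2 ratios of 0.20 and 0.026. The low ratio of Rpl12 was thus not seen in its other probe sets, and Rplp0 has no second probe set under the rule.

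Rpl11, which with Rpl5 and 5S RNA forms the particle that holds back Mdm2 when ribosome assembly fails, read 6162 in DBA/1 and 4646 in C57BL/6. Its log2 ratio of 0.41 stayed positive under every scaling, at 0.26 after lowess, and 607 of 3272 bright genes had a higher one. Of the proteins around the exit tunnel of the nascent chain, Rpl22, which mouse alpha-beta T cells need in order to develop, read 4911 in DBA/1 and 4141 in C57BL/6, while its second probe set read 208 in DBA/1 and 248 in C57BL/6. Their log2 ratios of 0.25 and -0.25 point opposite ways. Rpl22l1, the paralogue that can stand in for Rpl22, read 3779 in DBA/1 and 3349 in C57BL/6. Rpl35 had 5 bright probe sets, with DBA/1 signals from 5251 to 7434 and C57BL/6 signals from 4863 to 6555, and their log2 ratios ran only from 0.090 to 0.30.

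Rpl38, which in mouse embryos affects the translation of Hox mRNAs, read 9061 in DBA/1 and 7798 in C57BL/6. Rpl37a read 8860 and 6904 in DBA/1 and 7523 and 5820 in C57BL/6 in 2 probe sets, with log2 ratios of 0.24 and 0.25, and 209 in DBA/1 and 274 in C57BL/6 in another, with a ratio of -0.39. Rpl13a, much used as a loading control, had 4 bright probe sets between -0.098 and 0.087. Rpl7 had 3 between -0.028 and 0.21, and Rpl27 had 3 between -0.078 and 0.13. Rpl7a (0.0039), Rpl8 (0.036) and Rpl37 (-0.055) lay near 0, and Rpl4 (0.091), Rpl10a (0.13), Rpl19 (0.14) and Rpl6 (0.16) near the offset of the arrays, all on the log2 scale as deposited. Rpl41, the smallest ribosomal protein, read 8166 and 3357 in DBA/1 and 7361 and 3215 in C57BL/6 in 2 probe sets with ratios of 0.15 and 0.062. The dimmest bright one had 0.56 and a middle one -0.57.

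The 19 small subunit genes had a median log2 ratio of 0.11 as deposited, with a middle 50% from 0.070 to 0.19, and -0.033 after lowess. Over 11 bright small subunit genes listed together, most of them for proteins of the subunit's head, ratios ran from 0.0011 to 0.40. Rps19, which helps pre-rRNA mature and is the gene most often mutated in human Diamond-Blackfan anaemia, read 7778 in DBA/1 and 5886 in C57BL/6. Its ratio of 0.40 stayed positive under every scaling, at 0.26 after lowess. Rps3, which lines the mRNA entry and also acts in NF-kappaB binding, read 6732 in DBA/1 and 5700 in C57BL/6, a ratio of 0.24. Rpsa, also known as the laminin receptor, read 7751 in DBA/1 and 7227 in C57BL/6.

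In several small subunit genes the bright probe sets gave similar values, whereas those of Rps24 spanned 1.59 on the log2 scale. The 5 bright probe sets of Rps10 had log2 ratios from 0.046 to 0.19, the 3 of Rps18 from 0.096 to 0.20, the 3 of Rps29 from 0.056 to 0.12 and the 3 of Rps28 from -0.048 to 0.0040. Those of Rps14 were 0.13 and 0.14, those of Rps7 0.014 and 0.060, those of Rps15 -0.059 and 0.19, and those of Rps20 0.0011 and 0.24. Rps2 (0.11), Rps4x (0.093), Rps26 (0.13) and Rps3a1 (-0.024) had 1 bright probe set each. Within each of these genes the bright probe sets differed by less than 0.3. All 11 measured genes of the Diamond-Blackfan list, inherited failure of red cell production in people, were bright and had ratios above 0 as deposited, with a median of 0.13, where 65.4% of all bright genes lay above 0 and their median was 0.12. Of the 11, Rps7, Rps10, Rps24, Rps26, Rps28, Rps29 and Rpl27 change sign under another scaling.

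**Figure D3:**
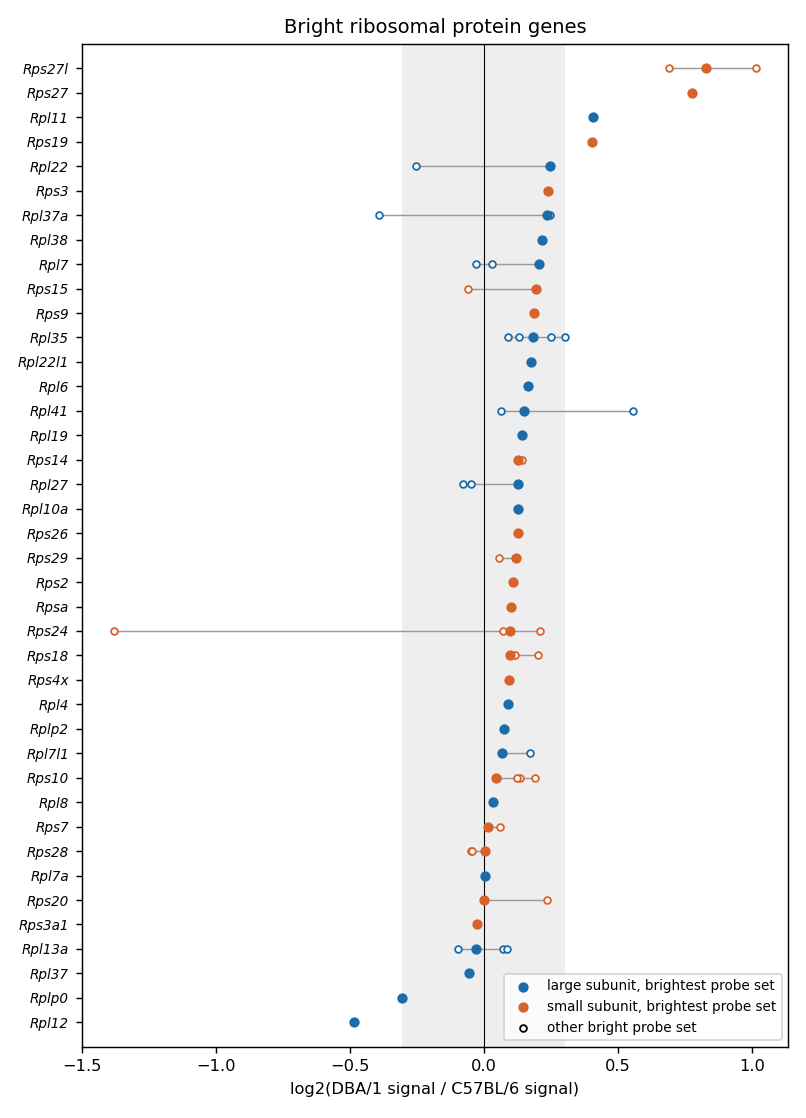
Log2 ratio of DBA/1 over C57BL/6 as deposited (horizontal) for the 40 bright ribosomal protein genes (vertical, ordered by ratio), with the brightest probe set of a gene filled, its other bright probe sets open and a grey band at ratios within 0.3 of 0. Rps27l and Rps27 lie at the top, Rplp0 and Rpl12 at the bottom, and 1 open point of Rps24 lies far to the left at -1.38. For 19 of the 40 genes the sign changes under another scaling.

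Rps27l was the member gene with the largest ratio in the bright class. It encodes a close paralogue of the small subunit protein Rps27 and is a known target of p53. Its 3 probe sets read 1014, 763 and 695 in DBA/1, against 571, 377 and 431 in C57BL/6, in the same order. Each of the 3 probe sets read higher in DBA/1 than in C57BL/6, and as probe sets of 1 gene on the same arrays they are not replicates. Those at 763 and 695 in DBA/1 are x-type, whose probes can pair with other transcripts. The log2 ratios were 0.83, 1.02 and 0.69, so the gene read 1.61 to 2.02-fold higher in DBA/1, and the lowest log2 ratio of any of the 3 under another scaling was 0.56. Of 3272 bright genes, 108 had a higher ratio than its brightest probe set. These are 3.30% of bright genes, counted in this direction only.

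Rps27 itself gave an unsettled answer. Its own probe set read 459 in DBA/1 and 268 in C57BL/6, a log2 ratio of 0.77 (1.71-fold) that was at least 0.66 under every scaling. The shared probe set of Rps27 and its retro-copy Rps27rt, near the top of both arrays, read 7916 in DBA/1 and 7225 in C57BL/6, a ratio of 0.13. The 2 differ by 0.64. Which transcript the dimmer probe set reads was not tested.

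In Rps9, Rps24, Rps6, Rps25 and Rpl14 a probe set was far apart in the strains while brighter ones for the same gene were not. Rps9, whose product helps to keep decoding accurate, had the largest such gap. An x-type probe set, whose probes can pair with other transcripts, read 102 in DBA/1 and 2573 in C57BL/6, a log2 ratio of -4.66 and a 25.2-fold higher signal in C57BL/6, the lowest ratio of all 5617 middle probe sets. The other probe sets of Rps9 read 5060 and 97.3 in DBA/1 and 4444 and 78.6 in C57BL/6, with ratios of 0.19 and 0.31. Only 1 of the 3 probe sets therefore separated the strains.

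Rps24, a small subunit protein that matures pre-rRNA, behaved alike. One x-type probe set read 1735 in DBA/1 and 4518 in C57BL/6, 2.60-fold higher in C57BL/6, with a log2 ratio of -1.38 that 14 of 5126 bright probe sets fell below. The other 3 bright probe sets of Rps24, also x-type, read 6472, 7320 and 7482 in DBA/1 and 6158, 6839 and 6475 in C57BL/6. Their ratios were 0.072, 0.098 and 0.21, so the type does not set the first apart. The probe set at -1.38 was the only bright member at least 1.5-fold lower in DBA/1.

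Rps6, the ribosomal protein that S6 kinases phosphorylate after mTORC1 is activated, read 113 in DBA/1 and 380 in C57BL/6 in its brighter own probe set, 3.37-fold higher in C57BL/6. Its 8 bright shared probe sets read from 219 to 8344 in DBA/1 and from 255 to 7339 in C57BL/6, with log2 ratios from -0.52 to 0.31, and the brightest of them had 0.19. Rps25, which internal ribosome entry sites require, read 128 in DBA/1 and 257 in C57BL/6 in its own probe set, and 5150 in DBA/1 and 4307 in C57BL/6 in its shared one. The own probe set was 2-fold lower in DBA/1, and the shared one had a log2 ratio of 0.26. Rpl14 went the other way. Its own probe set read 316 in DBA/1 and 88.6 in C57BL/6, 3.56-fold higher in DBA/1, while its 5 shared probe sets had ratios from 0.11 to 0.22.

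These 4 probe sets of Rps9, Rps6, Rps25 and Rpl14 were bright on exactly 1 array, as were 5 members in all. Of 1045 such probe sets on the arrays, 11.3% passed 2-fold downwards in DBA/1 and 13.7% upwards, and the 5 members held 3 lower and 1 higher. The strains differ in genome sequence and in their processed pseudogenes, and no probe sequence was used here, so the part of strain variants under the probes in these values was not tested.

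**Figure D4:**
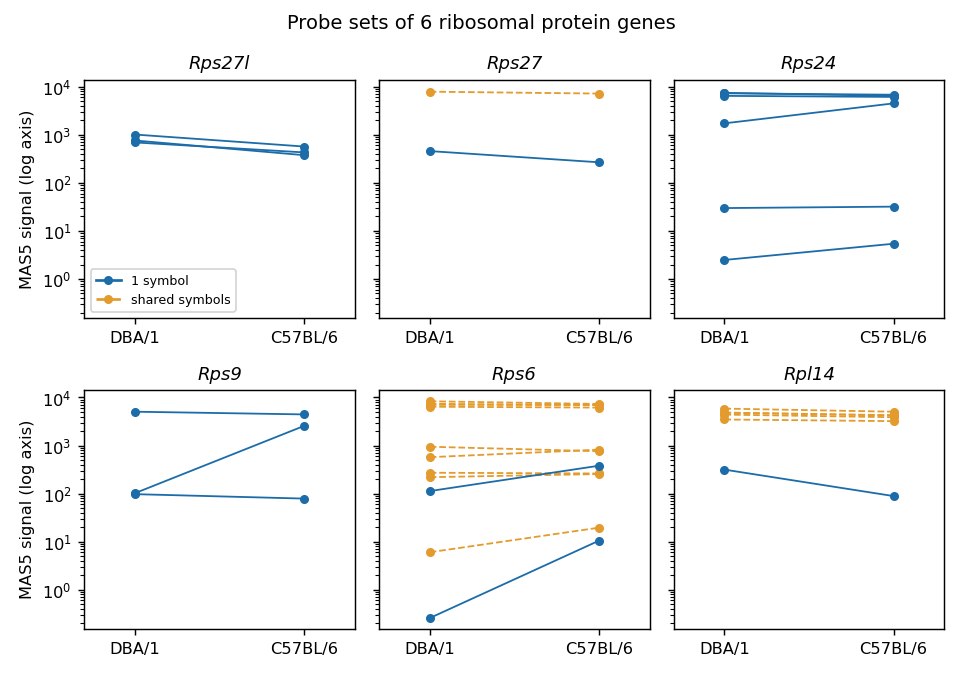
MAS5 signals on a log axis (vertical) in DBA/1 (left of each panel) and C57BL/6 (right) for every probe set of 6 genes, with probe sets of 1 symbol as blue solid lines and shared probe sets as orange dashed lines. The 3 lines of Rps27l fall to the right together, while in Rps24 and Rps9 a steep line stands out among flatter ones, as in Rps9 with 102 in DBA/1 and 2573 in C57BL/6. In Rpl14 the own probe set falls to the right far below the 5 shared ones, and in Rps6 the steep lines belong to both own probe sets and a dim shared one.

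The 8 middle members had a median log2 ratio of -0.61, with 2 higher and 6 lower in DBA/1. All 5617 middle probe sets had a median of 0.041, and 54.0% of them were higher. At least 1.5-fold lower in DBA/1 were 4 of the 8, where 8.94% of all middle probe sets were. At least 1.5-fold higher was 1, where 12.2% were. The dim members were too dim to compare. The 16 dim probe sets had signals from 0.256 to 38.3 in DBA/1 and from 0.768 to 33.3 in C57BL/6, and 13 of them belong to genes that also have a brighter probe set of their own. The 3 others are the only probe sets of Rpl3l, Rpl39l and Rps4l. Rpl3l, a paralogue of Rpl3 made in heart and skeletal muscle, read 9.97 in DBA/1 and 0.768 in C57BL/6, under the median signal of both arrays. Rpl39l, a testis-enriched paralogue of Rpl39, read 38.3 in DBA/1, just over that array's median, and 17.4 in C57BL/6. Rps4l read 1.92 in DBA/1 and 33.3 in C57BL/6, also under both medians. No fold is given where a side lies under the median. Of the 8 genes without a bright probe set of their own, 5 (Rpl14, Rpl27a, Rpl39, Rps6 and Rps25) had a bright shared one. Rpl27a read 6667 in DBA/1 and 6122 in C57BL/6 there, and Rpl39 read 7668 in DBA/1 and 6331 in C57BL/6. Their own middle probe sets went the other way. That of Rpl27a read 65.9 in DBA/1 and 95.1 in C57BL/6 (-0.53). That of Rpl39 read 41.2 in DBA/1 and 64.4 in C57BL/6 (-0.64). Rpl7l1, a factor of large subunit assembly that the symbol rule takes in, read 240 and 243 in DBA/1 and 229 and 216 in C57BL/6 in its 2 probe sets.

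Shared probe sets extend the view to 25 bright genes that have no probe set of their own, for 73 ribosomal protein genes in all. Of all 79 bright shared probe sets 1 was past 1.5-fold. Named after its value was seen, it is 1 of the 2 bright probe sets of Rpl15, which read 656 in DBA/1 and 343 in C57BL/6, a log2 ratio of 0.94, while the other read 5627 in DBA/1 and 5163 in C57BL/6. Fau, whose product is cut to give the ribosomal protein eS30, read 6157 in DBA/1 and 5916 in C57BL/6, a ratio of 0.058.

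Genes that make or control ribosomes were read in 6 lists. The growth-control list had 6 bright genes with a median log2 ratio of -0.052. As deposited 1 was higher and 5 were lower in DBA/1, where 65.4% of all bright genes were higher. Of all 13 measured genes of that list, 3 were higher and 10 lower. None of the 6 was past 1.5-fold, where 8.47% of all bright genes passed it upwards in DBA/1 and 2.29% downwards. No gene of the 6 lists passed 2-fold among bright genes, where 1.8% of all bright genes did upwards and 0.672% downwards. In lists this short, the absence of such genes lies near those shares. Myc, which drives ribosome production in activated lymphocytes, read 259 in DBA/1 and 268 in C57BL/6. Larp1 had the lowest ratio of the 6 bright genes, at 261 in DBA/1 and 359 in C57BL/6, a ratio of -0.46. Eif4ebp2 (-0.055) and the Myc antagonist Mxd4 (-0.061) lay near 0.

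Among the factors of RNA polymerase I, which transcribes pre-rRNA, 1 of 4 bright genes passed 1.5-fold. It was the shared subunit Polr1c, at 341 in DBA/1 and 203 in C57BL/6 (0.74), beside Znrd1 (0.45) and the promoter factor Ubtf (-0.15). Over all 13 measured genes of the list, bright or not, 8 lay above 0 and 5 below. The 2 largest subunits, in the middle class and chosen after their values were seen, went the other way, with Polr1a at 59.4 in DBA/1 and 114 in C57BL/6 (-0.95) and Polr1b at 41.0 in DBA/1 and 84.6 in C57BL/6 (-1.04). The 16 bright pre-rRNA processing genes had a median of 0.080 and none past 1.5-fold, with Nhp2 at 0.34, Nolc1 at 0.34 and Exosc1 at 0.30. The 12 bright large subunit assembly factors had a median of 0.20 and none past 1.5-fold. Their list holds Nip7 (0.45), Nop16 (0.52) and Rrs1 (-0.62), of which Nop16 and Rrs1 were bright on 1 array only.

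The 6 bright small subunit assembly factors had a median of 0.095, led by Pno1 (0.31), Riok3 (0.26) and Noc4l (0.10). The kinase Riok2 of the middle class had 56.0 in DBA/1 and 116 in C57BL/6 (-1.05), and it too was picked once its value was known. Other mRNAs known to start with a TOP tract had a median of 0.088 over 13 bright genes, beside 0.12 for the ribosomal protein genes and 0.12 for all bright genes. The intermediate filament gene Vim was past 1.5-fold, at 2529 in DBA/1 and 1583 in C57BL/6 (0.68), followed by the initiation factor subunits Eif3e (0.45) and Eif3h (0.26).

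**Figure D5:**
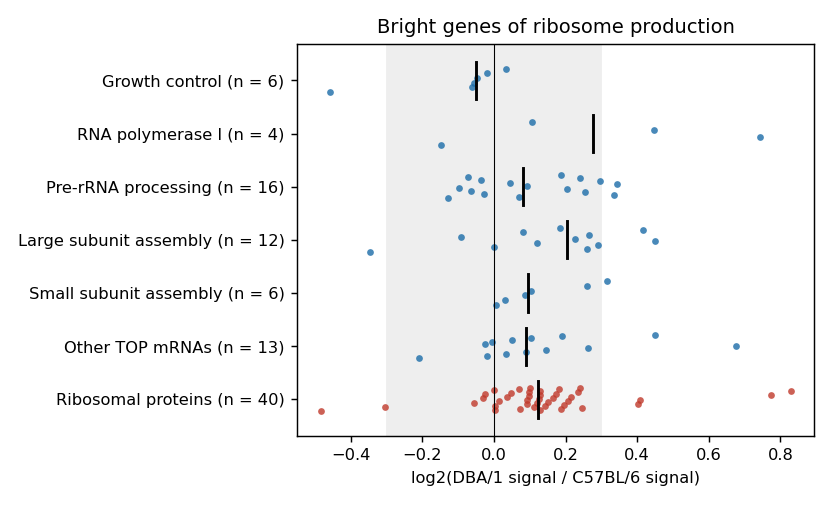
Log2 ratio of DBA/1 over C57BL/6 as deposited (horizontal) for bright genes of 6 lists of ribosome production and for the 40 bright ribosomal protein genes, 1 point per gene (brightest probe set), with a bar at each median and a grey band within 0.3 of 0. Medians run from -0.052 for growth control to 0.28 for 4 RNA polymerase I genes, with ribosomal proteins at 0.12, and medians near 0 change sign with the scaling of the arrays.

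Markers of other cells also differed between the 2 samples. As a background, 52.7% of all probe sets read higher in DBA/1, and 65.4% of bright genes did. T cell genes were bright throughout (8 of 8 measured), with summed signals of 12304 in DBA/1 and 13257 in C57BL/6. Of the 8, 2 were higher and 6 lower in DBA/1. Cd4, among the higher, read 913 in DBA/1 and 857 in C57BL/6. Thy1, among the lower, read 1143 in DBA/1 and 1664 in C57BL/6. All 11 measured neutrophil genes were higher in DBA/1, with sums of 34793 in DBA/1 and 10680 in C57BL/6. Of 9 measured B cell genes 8 were higher in DBA/1, with sums of 1615 in DBA/1 and 706 in C57BL/6, while the B cell factors Pax5 and Ebf1 lay under the median of both arrays. All 10 monocyte and macrophage genes were higher in DBA/1 (6244 in DBA/1 and 2706 in C57BL/6). All 5 CD8 and cytotoxic lymphocyte genes (Cd8a, Cd8b1, Nkg7, Ctsw and Klrk1) were lower in DBA/1, with sums of 382 in DBA/1 and 995 in C57BL/6. Of these only Ctsw was bright, and Cd8b1 was dim, at 16.1 in DBA/1 and 199 in C57BL/6. The 6 erythroid genes split evenly, with sums of 1569 in DBA/1 and 1366 in C57BL/6. Fewer cells of a type and less RNA per cell cannot be told apart here. The part of these cells in the values of Rps27l, Rpl11, Rps19, Rplp0 and Vim was not tested.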

How the data were processed

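RNA of 2 samples, 1 per strain, was measured on oligonucleotide arrays with oligo(dT)-primed, biotin-labelled cRNA, per the labels' protocols. The authors deposited 1 linear intensity per probe set and array, made with MAS5 per the submitters' processing notes. No label used here gives its scaling target or version. Intensities were used as deposited. Depth is not defined for arrays, and their number limits the precision. A platform annotation table gave gene symbols, and 48 of 48 Entrez identifiers matched a RefSeq table of GRCm38.p6 with the same symbol. The 64 control rows were left out. Ratios are log2 of DBA/1 over C57BL/6, and classes used percentiles 75 and 50 of each array. Start windows came from RefSeq on GRCm38.p6.

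No test was possible with 1 array per strain. The named genes are, among bright member genes, the 10 largest and 10 smallest ratios and the 5 brightest, genes whose bright probe sets differ by over 0.6, members 2-fold apart and bright on 1 array only, the members of the stalk, 5S particle, Diamond-Blackfan, paralogue and other-symbol lists, and 3 genes of each other list. Other members, Myc, Polr1a, Polr1b, Riok2 and the cell markers are named beyond this rule. Members, lists and rules were chosen with earlier results of these data known. On simulated data only the arithmetic of the log2 ratio, its median and the fold counts was checked. Classes, scalings and the choice of probe set were not. Alternatives were median centring, quantile normalization, lowess (span 0.3), log2(signal + 32) and classes at percentiles 50 and 90 or on 1 array. Further ones were omission of probe sets that carry the suffixes _s, _x, _a or _f and the mean over a gene's probe sets. The last were omission of a list of paralogues and like-named genes and, chosen after seeing the data, addition of the shared probe sets. Python 3.11.15, pandas 2.3.3 and statsmodels 0.14.6 were used.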

Additional observations from a re-analysis of the deposited data

How the results depend on the processing

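The medians followed the scaling of the arrays. The median log2 ratio of the bright ribosomal protein probe sets, 0.11 as deposited, was 0.028 after median centring, -0.023 after quantile normalization and -0.025 after lowess. That of the large subunit genes, 0.13, was 0 after quantile normalization and -0.015 after lowess, and that of the small subunit genes, 0.11, was 0.026 after median centring, -0.025 after quantile normalization and -0.033 after lowess. Quantile normalization and lowess remove the offset between the arrays by construction. They put the median of all bright probe sets at -0.00041 and -0.00053, against 0.12 as deposited. Median centring removed only a part of it and left that median at 0.030. The count of members at least 1.5-fold higher in DBA/1, 4, was 1 with the class at percentile 90. It was 1 without probe sets that carry the suffixes _s, _x, _a or _f. Without a list of paralogues and like-named genes, which takes in core ribosomal proteins such as Rpl13a, it was also 1, with 64 probe sets left. Of the 4, 3 are probe sets of Rps27l and 1 is that of Rps27. The count at least 1.5-fold lower, 1, was 5 with the class at percentile 50, 4 with percentile 75 on at least 1 array and 0 without those suffixes, which leaves 10 probe sets. Over 50 combinations of result and alternative, 36 stayed within the interval or factor set for them, the addition of the shared probe sets among them. With 1 array per strain no replicate could be left out. No paired analysis was possible because each strain has 1 array. Signals under the array median limit what can be said of Rpl3l, Rpl39l and Rps4l.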
